A study of Mus musculus with 77 samples.

Results

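The endothelin system was followed in the retina of mice with oxygen-induced retinopathy (OIR) and of control mice through its peptides, its receptors and an enzyme that activates the peptides. The genes *Edn1*, *Edn2*, *Edn3*, *Ednra*, *Ednrb* and *Ece1* were chosen by name and matched to every non-control probe whose transcript maps to their symbols, and each was read through its brightest probe. They were 6 of the 21154 genes with a symbol on the array, with 7 of its 55681 probes. *Ednrb* had a second, dimmer probe, given beside the first, and *Edn1* was spotted 10 times on each array.

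Endothelins are short peptides released from longer precursors, the last step being made by an endothelin converting enzyme. Receptor A on smooth muscle cells and pericytes narrows small vessels, while receptor B, found on endothelial cells and glia, releases dilating factors and clears the peptide. In the retina, endothelin 2 is known as a signal of injured photoreceptors, and receptor B is known from Müller cells and astrocytes.

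All 77 mice were C57BL/6. Litters were randomized on P7 to 75% oxygen (OIR group) or to 21% oxygen (control group) until P12. The P12 retinas were taken when the mice left the chambers, and the mice of the later days lived in room air from then on. Retinas came from 13 OIR and 12 control mice on P12, from 13 and 12 on P17, and from 13 and 14 on P28. Both retinas of a mouse were pooled for its array, and the litter of a mouse was not given, so littermates could not be modeled.

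Each array set retina RNA in one dye against a universal mouse reference RNA in the other. The labels give Cy5 to the retina, and the data go against them. The rod photoreceptor list of 10 genes was brighter in Cy3 than in Cy5 on 77 of 77 arrays for every gene. The lowest log2 ratio on any array was 3.92 for *Sag*, rod arrestin, 4.12 for *Gnat1*, rod transducin, and 1.04 for *Pde6b*, the lowest of the list. All ratios are therefore Cy3 over Cy5, retina over reference, which opposes the labelled direction, and no dyes were swapped. The same 10 genes were well above background in Cy3 on all 77 arrays, which fits the labelled tissue.

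The depth of an array was taken as its number of probes well above background in Cy3, which ran from 13765 to 34306. At P12 the median depth was 20050 for OIR mice against 21099.5 for controls, at P17 20285 against 20847, and at P28 32885 against 32169.5. The P28 medians were the highest, but the P28 arrays were split. Control mice 41, 65, 69, 75 and 85 had 19938 to 20967 such probes and the other P28 controls 31397 or more, and OIR mice 18 and 22 had 16887 and 19028 and the other P28 OIR mice 30817 or more. The number of arrays limits the precision. The arrays lay on 11 slides, and slides held both groups of a day 7 times for P12, 6 times for P17 and 3 times for P28. In OIR mice, P17 and P28 arrays shared only slide 10, on which mouse 22 was the only P28 OIR mouse. Age, slide and depth therefore cannot be told apart where P17 and P28 OIR mice are compared. No arrays had identical values.

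Log2 ratios were computed with an offset of 50 on both channels, which draws dim probes towards 0. OIR and control mice were compared on each day with limma (two-sided) over all 55681 probes, and a gene was called at an adjusted p under 0.05. In whole retinas, fewer cells of a type and less RNA per cell cannot be told apart.

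*Edn2*, which encodes endothelin 2, was higher in OIR retinas on both later days. On P17 its log2 ratio was −0.10 at the lowest, 0.02 at the median and 1.19 at the highest in control mice, and 0.57, 1.71 and 2.83 in OIR mice. A single control mouse made the groups overlap: 11 of 13 OIR mice lay above the highest control and 13 of 13 above the control median. Before normalization, the median retina signal of the spot was 193 in OIR mice (83 to 2622) over a local background of 27, and 40.25 in control mice (36.5 to 109) over 29.5.

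*Edn2* rose on P17 by 1.67 in log2 ratio (SE 0.21, 95% confidence interval 1.25 to 2.10, adjusted p = 1.6e-05 in limma). Its retina signal was well above background in 13 of 13 mice with OIR but in 3 of 12 controls, so the size of the difference holds for the offset of 50 and no fold is given. It was 1 of 6 members called that day, where 1.13% of all probes were called. With slide as a block the difference was 1.64 (adjusted p = 0.0048), and it was positive within each of the 6 shared slides, from 0.34 to 2.26.

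*Edn2* was called on P17 under 13 of 13 alternatives, with log2 differences from 1.63 to 4.22 and adjusted p-values from 6.0e-14 to 0.029. The largest, 4.22, came from the deposited table. The probe summary returned the main fit, as *Edn2* has no second probe. The filter on dim probes kept *Edn2* through the OIR group and left its difference unchanged, so neither adds support. The high control was mouse 8 of its group at 1.19, the other controls reaching 0.12 at most, and its slide gave the smallest within-slide difference, 0.34. Without it, an alternative chosen after seeing the data, the difference was 1.77 (adjusted p = 3.5e-06).

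On P28 the log2 ratio of *Edn2* was 0.33 at the lowest, 0.52 at the median and 1.18 at the highest in control mice, and 0.75, 2.09 and 2.61 in OIR mice. The groups overlapped through 1 OIR mouse, the other 12 of 13 lying above every control. All 13 OIR and 14 control mice had the probe well above background. In the retina channel alone the groups did not overlap, the highest control having a log2 signal of 7.39 and the lowest OIR mouse 7.64.

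The rise of *Edn2* on P28 was 1.36 on the log2 scale, 2.57-fold (SE 0.14, 95% confidence interval 1.07 to 1.66, adjusted p = 8.5e-06 in limma). It was 1 of 6 members called, where 0.0611% of all probes were called, and stood 4th of all probes by log2 difference. Slide as a block gave 1.47 (adjusted p = 6.8e-06), and the 3 shared slides, which held none of the shallower P28 arrays, gave 1.40 to 1.54. The call was made under 10 of 12 alternatives (adjusted p from 9.5e-10 to 0.78), and the log2 differences ran from 0.48 to 2.09. The largest came from median centring, while the deposited table and the scanner log ratio kept the direction at 0.48 without passing. The probe summary and the filter on dim probes left the difference unchanged and add no support.

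On P12 *Edn2* was not well above background in the retina channel of any OIR (0 of 13) or control mouse (0 of 12), so no fold is given. Its log2 ratio ran from −0.11 to 0.05 in control and from −0.13 to 0.12 in OIR mice, and the groups overlapped. The difference was 0.02 (p = 0.50), but 0.82 in the deposited table (p = 0.018) and 0.84 in the scanner log ratio (p = 0.018), neither passing (adjusted p from 0.81 to 1 over the alternatives). Limma called 0 of 6 members on P12, where 0.0233% of all probes were called and 1740 had an unadjusted p under 0.05.

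**Figure D1:**
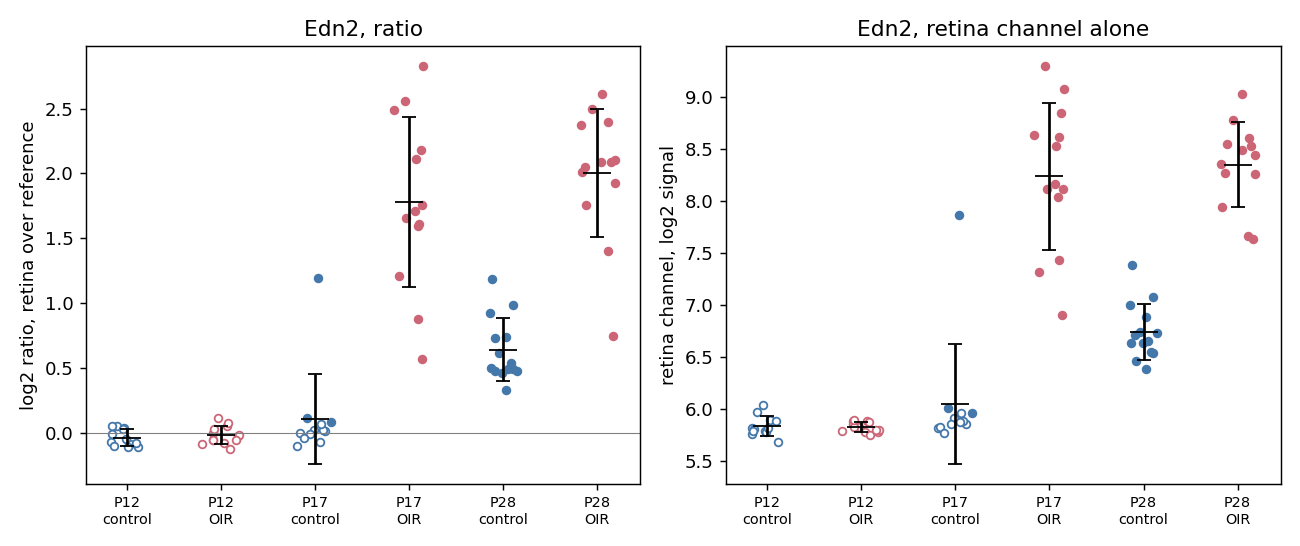
*Edn2* in each mouse by group, as the log2 ratio of retina over reference (left) and as the log2 signal of the retina channel alone (right). Filled points mark arrays with the probe well above background in the retina channel, open points the others, and bars give the mean and SD; P17 and P28 OIR mice stand above most controls, with 1 P17 control at a ratio of 1.19.

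Whether the OIR effect changed between days was tested in a single fit over all groups. From P12 to P17 the effect on *Edn2* rose by 1.65 (adjusted p = 6.4e-08 in limma), 1 of 6 members called where 0.48% of all probes were. From P12 to P28 it rose by 1.34 (adjusted p = 6.6e-05), 1 of 6 members called where 0.0395% of all probes were. The P12 side of both differences lay below background.

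These changes of *Edn2* depended on the processing. Median centring ended the call from P12 to P17 (1.89, adjusted p = 0.094, alternatives from 1.8e-10 to 0.094). From P12 to P28 the deposited table gave −0.34 and the scanner log ratio −0.36, the opposite sign, and an offset of 0 gave 0.86 (adjusted p = 0.92, alternatives from 6.3e-06 to 0.92).

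From P17 to P28 limma called 0 of 6 members, where 0.278% of all probes were called and 7804 had an unadjusted p under 0.05. The *Edn2* effect differed by −0.31 (adjusted p = 0.46), and a larger P17 effect was called in the deposited table (−3.74), the scanner log ratio (−3.72) and with an offset of 0 (−2.57), while median centring gave 0.16 (adjusted p from 1.2e-05 to 0.86 over the alternatives).

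With age, 3 of 6 members were called in OIR mice from P12 to P17, where 3.43% of all probes were, namely *Edn1*, *Edn2* and *Ednra*. *Edn2* rose by 1.80 (adjusted p = 4.7e-16 in limma). As no P12 mouse was well above background, its fold is a bound, at least 4.995-fold: the mean P17 retina signal against, per P12 array, the higher of the lowest signal well above background and the probe's own, as log2 values after loess and Aquantile (8.24 against 5.92), and open to dye bias without swaps.

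From P17 to P28, *Edn2* in OIR mice differed by 0.22 without passing (adjusted p = 0.24), and 4 of 11 alternatives called it in opposite directions. The deposited table and the scanner log ratio called it lower on P28, at −1.29 (adjusted p = 0.0072 and 0.0076), and median centring (1.56, adjusted p = 3.0e-06) and array weights (0.41, adjusted p = 0.010) higher (alternatives from 3.0e-06 to 0.87). Of all probes there, median centring called 89.6%, array weights 50.6% and the scanner log ratio 40.6%, and 44.3% were called in the deposited table. With such shares, the calls in either direction say little of *Edn2*. In control mice limma called 0 of 6 members from P12 to P17, where 1.28% of all probes were called and 4569 had an unadjusted p under 0.05. *Edn2* differed by 0.14 there (adjusted p = 0.93) and by 0.0459 without mouse 8, while the deposited table (1.48) and the scanner log ratio (1.47) called it (alternatives from 0.037 to 1). It rose by 0.53 from P17 to P28 in control mice (adjusted p = 0.0093), 1 of 6 members where 13.4% of all probes were called, and under 12 of 12 alternatives (0.45 to 2.44). Among these, median centring called 83.3% and array weights 34.1% of all probes, so their calls add little. The probe summary and the filter on dim probes left the difference unchanged and add no support.

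The mean log2 ratio of *Edn2* put the groups in the order P12 control (−0.04), P12 OIR (−0.02), P17 control (0.11), P28 control (0.64), P17 OIR (1.78) and P28 OIR (2.0035). P28 control stood beyond the spread from both of its neighbours, and the other neighbours did not differ by more than the larger SD. The deposited table, looked at after seeing the data, put P17 OIR (4.91) above P28 OIR (3.62) and left P28 OIR within the spread of P28 control (3.14).

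The reference RNA was the same on all arrays, and its channel was well above background for *Edn2* on 19 of 77, on P17 in 4 of 13 OIR and 1 of 12 control mice. After loess and Aquantile, that channel was 0.52 higher in OIR mice on P17 (adjusted p = 0.049), *Edn2* being among 8 probes called in it. On P28 it was 0.24 higher (adjusted p = 0.96). Before normalization, its median signal on P17 was 26 in OIR mice over a background of 21, and 24.5 in controls over 23. On P28 the median was 44.5 in OIR mice over 27, and 31.5 in controls over 26. The retina channel alone differed by 2.19 on P17 (adjusted p = 5.3e-06) and by 1.61 on P28 (adjusted p = 2.1e-08). The change of effect from P12 to P17 was 0.54 in the reference channel (adjusted p = 0.0072). The part of the reference channel in the ratio of *Edn2* was not tested beyond these values.

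*Edn1* encodes endothelin 1, the main endothelin of the vessel wall. Its probe was well above background on 28 of 77 arrays in the retina channel, among them 9 of 14 control and 11 of 13 OIR mice on P28. On P17 its log2 ratio was −0.26 at the lowest, −0.15 at the median and −0.06 at the highest in control mice, and −0.14, −0.09 and 0.30 in OIR mice. The groups overlapped, although 13 of 13 OIR mice lay above the control median.

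The P17 difference of *Edn1*, 0.08, did not pass (p = 0.035, adjusted p = 0.42 in limma), and those on P12 (0.01) and P28 (−0.0036) changed sign under several alternatives. In OIR mice *Edn1* was well above background in 1 of 13 mice on P12 and 2 of 13 on P17, so its call between these days (0.13, adjusted p = 0.0088) compared groups mostly at background. The filter on dim probes left *Edn1* out of that comparison, and median centring gave 0.25 without passing (alternatives from 1.8e-07 to 0.90). Its log2 ratio was lower on P28 than on P17, at −0.15 (adjusted p = 7.8e-05), but the deposited table, the scanner log ratio and median centring turned the sign, the last with a call (0.18, adjusted p = 0.042), an offset of 0 gave −0.34 (adjusted p = 0.058) and slide as a block gave −0.08 (adjusted p = 0.10, alternatives from 1.5e-05 to 0.99).

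*Edn3*, which encodes endothelin 3, was well above background on 0 of 77 arrays in either channel. Its log2 ratios ran from −0.14 to 0.18 over all mice, the groups overlapped on each day, and no fold is given.

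*Ednra* encodes receptor A, the contracting receptor. On P12 its log2 ratio was 0.04 at the lowest, 0.17 at the median and 0.67 at the highest in control mice, and −0.09, 0.04 and 0.26 in OIR mice. On P17 these were −0.02, 0.18 and 0.59 in control mice, and 0.07, 0.38 and 1.15 in OIR mice. The groups overlapped on both days, with OIR mice lower by the median on P12 and higher on P17.

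On P28 *Ednra* was 0.01 at the lowest, 0.17 at the median and 0.33 at the highest in control mice and 0.05, 0.27 and 0.47 in OIR mice, again overlapping. It was well above background in 8 of 12 control and 3 of 13 OIR mice on P12, in 7 of 12 and 11 of 13 on P17, and in 9 of 14 and 11 of 13 on P28. No day passed in limma: −0.17 on P12 (p = 0.016), 0.16 on P17 (p = 0.14) and 0.10 on P28 (p = 0.035), with adjusted p-values of 0.9997, 0.62 and 0.66. Other processing gave larger differences, also without passing. On P12 the deposited table gave −1.49 (p = 0.0013, adjusted p = 0.57 in limma), and the alternatives reached 0.93 on P17 and 0.30 on P28.

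Within slides the *Ednra* difference was positive on 1 of 7 slides on P12 (−0.39 to 0.05), on 6 of 6 on P17 (0.03 to 0.43) and on 3 of 3 on P28 (0.07 to 0.10). The change of its effect from P12 to P17, 0.32, did not pass (p = 0.0036, adjusted p = 0.37) but was called under 5 of 12 alternatives, slide as a block among them (adjusted p from 0.0019 to 1 over all). The size of this change ran from 0.30 to 2.42 over the alternatives, the largest in the deposited table. The reference channel, well above background for *Ednra* on 1 of 77 arrays, gave 0.29 for the same change after loess and Aquantile (adjusted p = 0.022). It gave 0.19 for the P17 difference (p = 0.00061, adjusted p = 0.57). Before normalization, its median signal on P17 was 23 in OIR mice over a background of 21, and 25 in controls over 22. The part of that channel in the ratio was not tested beyond these values.

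In OIR mice *Ednra* rose from P12 to P17 by 0.33 (adjusted p = 0.0020), while median centring gave 0.56 without passing (alternatives from 2.8e-06 to 0.75). From P17 to P28 it differed in OIR mice by −0.12 (adjusted p = 0.20). Slide as a block (−0.25, adjusted p = 0.0019) and the retina channel alone (−0.27, adjusted p = 0.024) called it lower on P28, and median centring gave 0.24 (alternatives from 0.0019 to 0.59).

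*Ednrb* encodes receptor B. Its brighter probe was well above background on 34 of 77 arrays and the dimmer on 19, the latter in no P17 mouse. For the brighter probe the log2 ratio on P17 was −0.20 at the lowest, −0.03 at the median and 0.14 at the highest in control mice and −0.36, −0.05 and 0.13 in OIR mice, which overlapped. The daily differences were 0.01 on P12, −0.01 on P17 and 0.07 on P28, none passing in limma, and the P12 and P17 signs turned under several alternatives. For the dimmer probe they were −0.0026, −0.01 and 0.05, none passing.

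From P17 to P28, *Ednrb* rose in OIR mice by 0.14 (adjusted p = 0.0056), its probe being well above background in 2 of 13 and then 11 of 13 mice. The median depth of these arrays was 20285 and then 32885, and they shared almost no slides. Age therefore cannot be told apart from depth and slide, in the ratio or in these detection counts. Alternatives ran from 0.05 to 1.54, and the call was lost with slide as a block (0.05, adjusted p = 0.52) and in the retina channel alone (0.09), over a range of 4.8e-06 to 0.52. The dimmer probe, well above background in 0 of 13 and then 9 of 13 mice, differed by 0.13 (adjusted p = 0.00017), was called in the retina channel alone (0.12, adjusted p = 0.00071) and lost its call with slide as a block (0.06, adjusted p = 0.28, alternatives from 4.2e-07 to 0.28). With *Edn1* and *Ece1*, *Ednrb* made 3 of 6 members called there, where 40.6% of all probes were called, a share near that of the members.

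*Ece1* encodes an endothelin converting enzyme and was well above background on 59 of 77 arrays. On P17 its log2 ratio was −0.72 at the lowest, −0.26 at the median and −0.09 at the highest in control mice and −0.50, −0.14 and −0.01 in OIR mice, and the groups overlapped. The P17 difference of 0.15 did not pass (p = 0.036, adjusted p = 0.43 in limma), though the deposited table and the scanner log ratio called it at 0.69 (adjusted p = 0.047 and 0.045, alternatives from 0.045 to 1). The differences on P12 (0.03) and P28 (−0.09) did not pass.

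In OIR mice *Ece1* was lower on P28 than on P17, at −0.30 (adjusted p = 5.9e-05). These days shared almost no slides in OIR mice and differed in depth, so age cannot be told apart from slide and depth. Slide as a block gave −0.15 (adjusted p = 0.055), and median centring called it higher on P28, at 0.31 (adjusted p = 0.00055, alternatives from 1.1e-08 to 0.055). Before normalization its median retina signal was 53 over a background of 25 on P17 and 114 over 38 on P28.

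**Figure D2:**
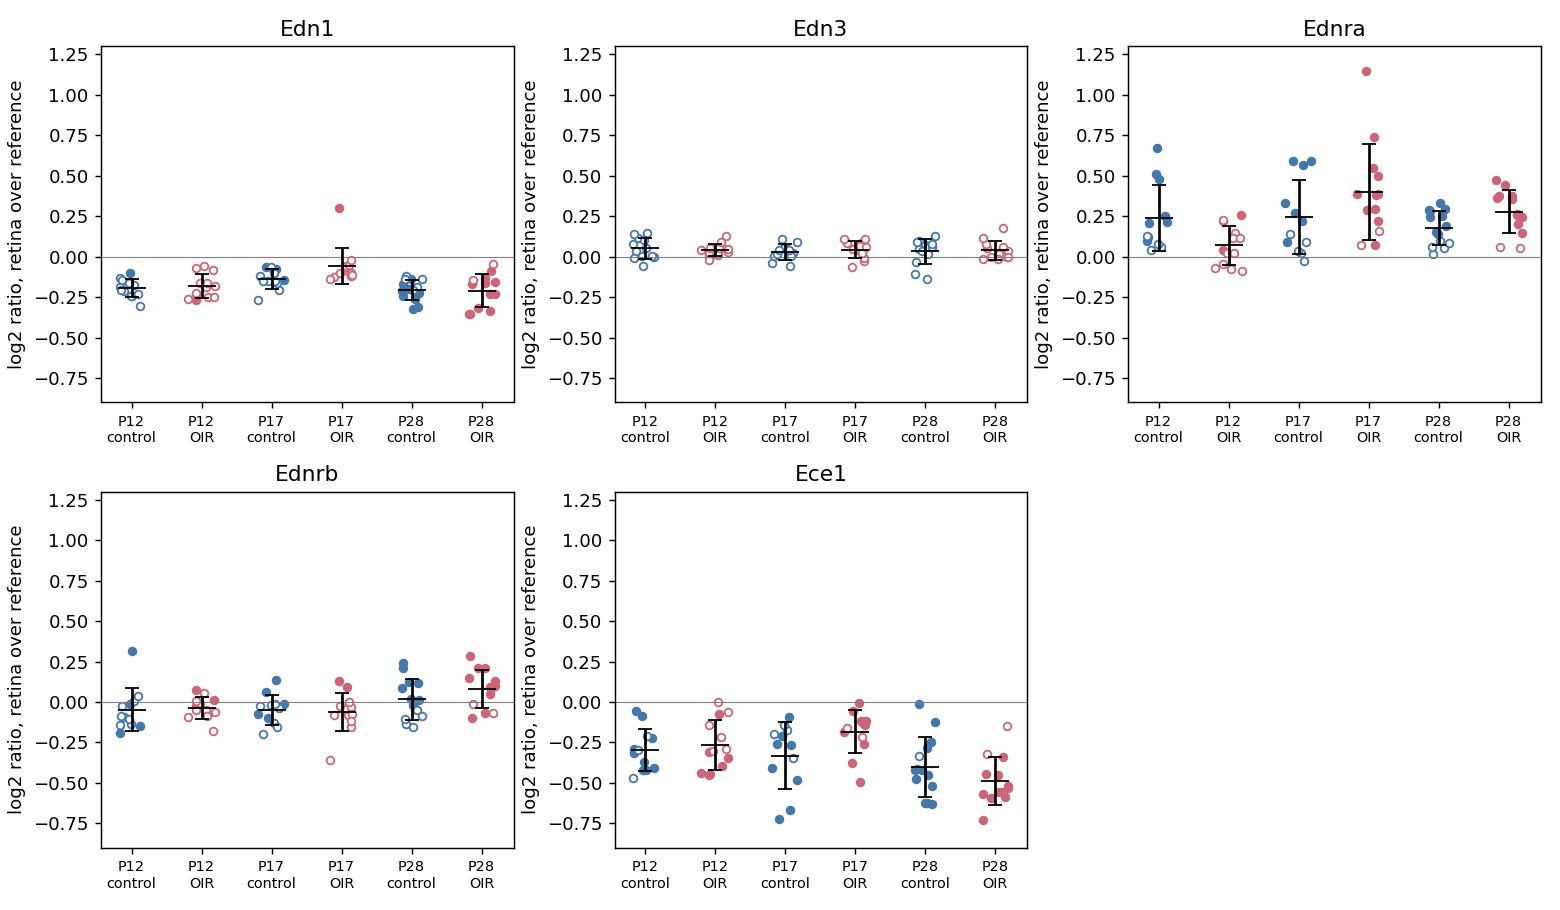
Log2 ratio of retina over reference in each mouse for *Edn1*, *Edn3*, *Ednra*, *Ednrb* (brighter probe) and *Ece1* by group. Filled points mark arrays with the probe well above background in the retina channel, open points the others, and bars give the mean and SD; OIR and control mice of a day overlap for each gene.

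**Figure D3:**
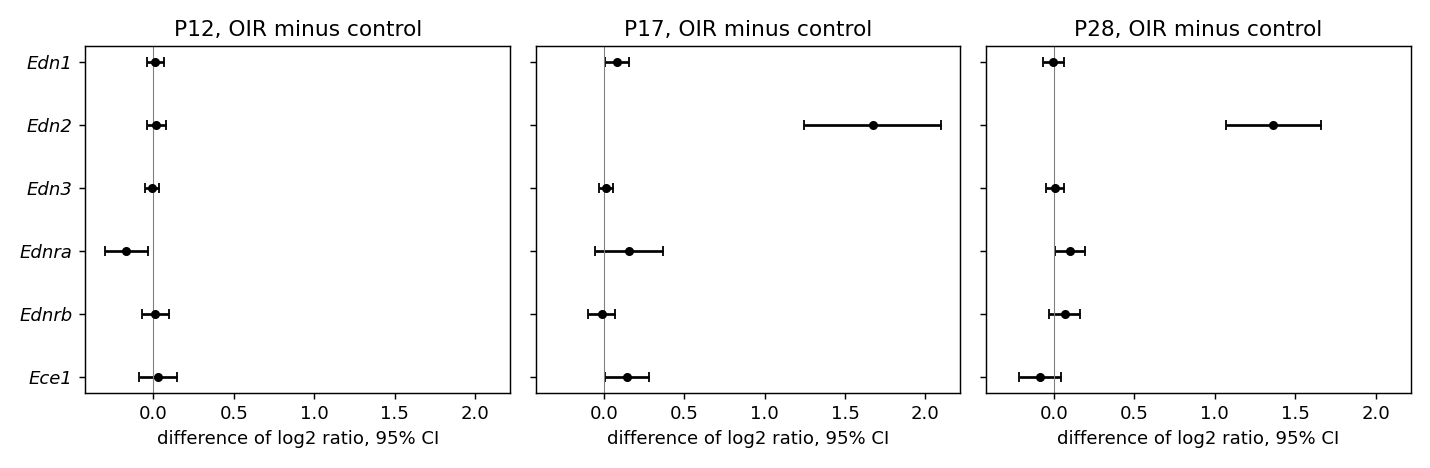
OIR minus control difference of the log2 ratio with its 95% confidence interval on P12, P17 and P28 for the 6 genes. *Edn2* stands at 1.67 on P17 and 1.36 on P28, and on P28 the deposited table and the scanner log ratio gave 0.48 and median centring 2.09.

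Among other genes of the pathway, 1 of 10 genes that process endothelins rose on P17 and 0 fell, *Ctsa*, a lysosomal protease, at 0.32 (median of the list −0.004 against 0.001 over all probes). Limma called 0 of them on P12 and P28. Of 28 genes that carry the receptor signal, *Gnai2*, a G protein subunit, rose by 0.80 and *Rgs3*, which limits G protein signaling, fell by 0.39 on P17 (median −0.02), and slide as a block called 2 in each direction. *Rgs3* fell by 0.15 on P28 (median of the list 0.05), and with slide as a block 0 of the 28 were called that day.

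Of the glial response list, 8 of 10 genes were called higher on P17 and 1 of 10 on P28, where 1.13% and 0.0611% of all probes were called. The days were not compared by a test. On P17, 0 fell, with a median of 0.86, and *Cebpd*, an acute phase transcription factor, rose by 2.65, *Stat3*, a cytokine signal transducer, by 1.51, and the filament genes *Vim* by 1.19 and *Gfap* by 0.97. With slide as a block 8 of 10 rose (median 0.84), where 1.49% of all probes were called. The list was higher within all 6 shared slides, by 0.70 to 1.26. On P28 the gene called was *Cebpd* at 1.25 (median 0.27), and slide as a block called 2 of 10, where 0.219% of all probes were called.

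The mean log2 ratio of the glial list at P12 was −1.20 for controls against −1.12 for OIR mice, at P17 −1.14 against −0.22, and at P28 −1.20 against −0.86. Its brightest gene was *Vim*, and 0 of its genes were below background on every array. The part of these genes in the *Edn2* difference was not tested.

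Vascular genes were read through 3 lists, and the days were not compared by a test. On P17, 3 of 12 endothelial genes rose (*Cd93* 1.63, *Cd34* 1.33, *Egfl7* 1.09), 4 of 8 tip cell genes (*Esm1* 1.56, *Apln* 1.42, *Adm* 1.31, *Plvap* 0.29) and 3 of 11 mural genes (*Tagln* 1.03, *Cspg4* 0.73, *Notch3* 0.63), and 0 fell. Slide as a block called 4, 3 and 5 of them. Of all probes, 1.13% were called on P17, and 1.49% with slide as a block. On P12, 3 of 12 endothelial genes fell (*Cd93* −1.03, *Egfl7* −0.86, *Cd34* −0.81), 0 of 8 tip cell genes were called (4 of 8 positive) and 1 of 11 mural genes fell (*Abcc9* −0.37). Of all probes, 0.0233% were called that day. On P28 limma called 0 in these lists (1 endothelial and 1 tip cell gene with slide as a block, where 4144 probes in all had an unadjusted p under 0.05 without it). Within slides the endothelial list was lower on all 7 on P12, by −0.63 to −0.26, and higher on all 6 on P17, by 0.32 to 0.61.

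The mean log2 ratio of the endothelial list at P12 was 0.46 for controls against 0.08 for OIR mice, at P17 0.42 against 0.83, and at P28 0.25 against 0.36. For the mural list it was −0.83 against −0.86 at P12, −0.80 against −0.42 at P17 and −1.07 against −1.09 at P28. Their brightest genes were *Kdr* and *Acta2*. The part of these lists in the *Ednra* and *Edn2* values was not tested.

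Of the remaining cell lists on P17, where 1.13% of all probes were called, 1 of 6 astrocyte genes rose (*Aldh1l1* 0.41). The astrocyte list ran from −0.35 to 0.41 with 3 of 6 positive. Of microglial genes 2 of 8 rose (*Csf1r* 0.51, *Aif1* 0.33) with 7 of 8 positive, and of red blood cell genes 1 of 6 (*Hba-a1* 1.38) with 5 of 6 positive. There fell 1 of 8 ganglion cell genes (*Nefl* −0.77), 1 of 7 amacrine and horizontal cell genes (*Slc6a9* −0.36), 1 of 10 pigment epithelium genes (*Rpe65* −0.81) and 1 of 9 lens genes (*Bfsp2* −0.31), with 2 positive in each of these lists. Of Müller glia, rod, cone, bipolar and skeletal muscle genes limma called 0 on any day, and on P28 *Csf1r* rose by 0.41. On P28, 0 of 10 rod genes were positive (median −0.35, with slide as a block 0.02), and 0 of 6 bipolar genes (−0.09, 0.04). On P12, 0 of 8 Müller glia (−0.18, 0.01), 0 of 7 cone (−0.27, −0.10) and 0 of 6 bipolar genes (−0.21, −0.10) were positive. With slide as a block on P17, 0 red blood cell and 0 pigment epithelium genes were called, while 2 Müller glia genes and 1 bipolar gene fell and, of lens genes, 1 rose and 1 fell. Their part in the endothelin values was not tested.

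Over the 77 log2 ratios, the genes most like *Edn2* among 15133 were *C4b* (r = 0.937), *Cebpd* (0.890), *2900057B20Rik* (0.880), *E2f6* (0.860) and *Serping1* (0.849). The r of deviations from the group means was 0.529, 0.509, 0.640, 0.626 and 0.507. Arrays of a group share its mean and some a slide, so these are descriptions without p.

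*Ednra* was most like *Lama4* (r = 0.886), *Mmrn2* (0.884), *Slco2b1* (0.868), *Ccm2l* (0.860) and *Sox18* (0.860), with 0.859 to 0.876 for the deviations. *Edn1* was most like *Smagp* (0.819), *Smtnl2* (0.803), *Efna1* (0.794), *Ctla2a* (0.792) and *P2rx7* (0.790), and *Ece1* like *Cald1* (0.841), *Klf5* (0.838), *Ccl3* (0.834), *Pimreg* (0.834) and *Phf11d* (0.833). *Ednrb* was most like *Lypd1* (0.740), *Pfdn6* (0.739), *Rab10os* (0.735), *Faf2* (0.735) and *Pts* (0.733). For *Edn3*, below background throughout, the highest were *Rpl9* (0.465), *Zfp758* (0.417), *Hpca* (0.402), *Tma7* (0.392) and *Wtap* (0.391).

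The bases before the start of *Edn2*, the member that rose, are set beside those of *Edn1*, whose OIR difference did not pass on any day, from RefSeq GRCm38.p6. The *Edn2* window is chr4:120160956-120161205 and the *Edn1* window chr13:42301226-42301475, both on the plus strand. Both strands were searched for the hypoxia response cores spelled ACGTG and, in another form of the core, GCGTG, for the AP-1 motif spelled TGANTCA and for the STAT motif spelled TTCNNNGAA. Capitals mark a match, here to the core that begins with GCG, lying on the minus strand.
Edn2: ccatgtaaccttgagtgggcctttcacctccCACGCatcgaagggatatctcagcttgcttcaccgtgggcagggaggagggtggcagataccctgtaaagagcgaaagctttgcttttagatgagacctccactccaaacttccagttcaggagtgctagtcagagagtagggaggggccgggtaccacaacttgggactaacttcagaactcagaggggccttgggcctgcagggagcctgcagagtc
Edn1: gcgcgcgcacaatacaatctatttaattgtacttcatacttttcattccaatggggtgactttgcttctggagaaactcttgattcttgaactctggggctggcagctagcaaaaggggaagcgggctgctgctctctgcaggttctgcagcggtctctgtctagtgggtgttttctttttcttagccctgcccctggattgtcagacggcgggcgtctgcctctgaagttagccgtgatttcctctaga
*Edn2* held 1 match, to GCGTG, 219 bases before the start, and *Edn1* held 0 of the motifs. Members whose OIR difference did not pass held matches too: *Ednrb* held GCGTG 99 bases before its start, and *Ece1* held GCGTG in 3 of its 4 windows, a pair of which overlap and share 1 match, and ACGTG in 1, while *Edn3* and *Ednra* held 0. Of 32851 windows of this length, 16.6% held a match to ACGTG and 28.2% held the form GCGTG. The AP-1 motif was in 6.75% and the STAT motif in 7.02%.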

How the data were processed

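The 77 SurePrint arrays were grouped by day and oxygen as labelled. Per the file headers, spot signals and backgrounds are intensity values from Feature Extraction 10.7.3.1, and its deposited log ratio is a log10 of Cy5 over Cy3. The table deposited by the authors holds, for at least 99.26% of probes (tolerance 0.001), the log2 of processed Cy3 over Cy5, with column medians from −0.127 to 0.00993; its GeneSpring settings are not given in the sources used here. From median signals, R 4.3.3 with limma 3.58.1 and the data.table package (1.17.8) gave normexp-corrected values (offset 50), loess-normalized within arrays. Control spots and outlier spots (0.290 to 0.582% of non-control spots) were left out and spots of a probe averaged. Each day was fitted alone and changes between days in 1 fit over 6 groups, with Benjamini-Hochberg adjustment over 55681 probes. The fit of a day was tested by adding known changes to probes of part of the P28 control arrays. The fit over 6 groups and the slide block were not tested in this way. RefSeq transcripts gave symbols to 28026 probes. A gene was read by its brightest probe.

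Named are all members, from each list at most 4 genes per direction past an adjusted p of 0.05 on a day, largest change first, and the 5 genes most correlated with each member among probes well above background on 50% of the arrays of a group or more. The values of 1 list gene are not reported here. The members and lists were chosen with earlier results of these data known. Alternatives changed 1 choice at a time: slide block, offset, background, centring, retina channel alone, fit, weights, filter and probe summary. For members other than *Ednrb* the probe summary repeats the main fit. The filter keeps a probe detected in any group compared and leaves its difference unchanged. Tallies of alternatives count both, without added support from them. The deposited and scanner ratios, made from processed signals, changed background, offset and dye normalization together.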

Additional observations from a re-analysis of the deposited data

Results flagged for a closer look

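The OIR effect on *Edn2* differed between days by a direct test. It was 1.65 higher on P17 than on P12 (adjusted p = 6.4e-08 in limma), and the test passed under 11 of 12 alternatives, the exception being median centring at 1.89 (adjusted p = 0.094, range 1.8e-10 to 0.094). On P28 it was 1.34 higher than on P12 (adjusted p = 6.6e-05 in limma), passing under 8 of 11 alternatives (range 6.3e-06 to 0.92), with −0.34 in the deposited table, −0.36 in the scanner log ratio and 0.86 with an offset of 0. Both tallies hold the probe summary and the filter on dim probes, which left these differences unchanged. *Edn2* was not well above background in any P12 mouse, and the part of this in the differences was not tested.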

How the results depend on the processing

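*Edn2* kept its direction on P17 and P28 under every alternative run. Members called moved by more than 1.5 times as follows, and the cause was not tested. The share of all probes called moved with the setting too and is given beside. The deposited table and the scanner log ratio each gave 2 on P17, 0 on P28, 2 for the change from P12 to P17, 1 from P17 to P28, 0 from P12 to P28 and 1 with age from P12 to P17 in control mice. In that order, 2.64%, 0.203%, 1.39%, 0.584%, 0.176% and 2.57% of all probes were called in the deposited table. The scanner log ratio called 2.93%, 0.216%, 1.43%, 0.62%, 0.176% and 2.65%. An offset of 0 gave 1 from P17 to P28 (0.431% of all probes) and 0 from P12 to P28 (0.0952%). Slide as a block gave 2 for the change from P12 to P17 (0.941% of all probes). It gave 2 in control mice from P17 to P28 (14.5%) and 1 in OIR mice from P17 to P28, *Ednra* (17.2%). Median centring gave 0 for the change from P12 to P17 (0.0126% of all probes) and 1 in OIR mice from P12 to P17 (0.0988%). From P17 to P28 it gave 4 in control and 5 in OIR mice, where it called 83.3% and 89.6% of all probes, shares near those of the members, and both counts held *Edn3*, well above background on 0 of 77 arrays. The retina channel alone (0.876% of all probes) and array weights (1.29%) gave 2 for the change from P12 to P17. Array weights gave 3 in control mice from P17 to P28 (34.1%). Within 1.5 times lay 2 in OIR mice from P12 to P17 (filter on dim probes, 11.8% of the probes it kept). So did, in OIR mice from P17 to P28, 4 (scanner log ratio, 40.6% of all probes, and array weights, 50.6%) and 2 (offset 0, 31.9%). In OIR mice from P17 to P28 the deposited table (44.3% of all probes) kept 3 with *Edn2* for *Edn1*. The retina channel (45.3%) kept 3 with *Ednra* for *Ednrb*.

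Signs turned for small differences and also for some called ones, the cause not tested. On P12 *Edn1* became −0.01 (slide block), −0.17 (offset 0), −3e-04 (no background subtraction), −0.0497 (median centring) and −0.0587 (retina channel), *Edn2* −0.0085 (retina channel), *Ednrb* −0.25 (deposited), −0.24 (scanner), −0.13 (offset 0), −0.0493 (median centring) and −0.0598 (retina channel), and *Ece1* −0.0135 (slide block), −0.0036 (offset 0), −0.0141 (median centring) and −0.0735 (retina channel). On P17 *Ednrb* became 0.0185 (slide block), 0.009 (scanner), 0.046 (offset 0) and 0.0087 (array weights). On P28 *Edn1* became 0.0115 (slide block), 0.49 (deposited and scanner), 0.17 (offset 0), 0.19 (median centring), 0.0271 (retina channel) and 0.0011 (array weights), and *Ece1* 0.0825 (median centring). The *Edn2* change from P12 to P28 became −0.34 (deposited) and −0.36 (scanner). In OIR mice from P17 to P28, *Edn1* became 0.0026 (deposited), 0.008 (scanner) and 0.18 (median centring), and *Ece1* 0.31 (median centring); *Edn2*, not called there, became −1.29 (deposited and scanner), −0.77 (offset 0) and −0.0426 (no background subtraction).

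No paired analysis was possible because replicate numbers do not mark shared animals, litters or days. Dim probes, most of all *Edn3* and P12 *Edn2*, limit what was measured.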

Other observations

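*Edn2* was set against 4 list means and the depth of the array within P17 OIR, P28 OIR and P28 control mice, 15 relations chosen after the values were seen. The adjusted p-values cover the 15 relations but not that choice. The glial list holds *Cebpd*, also among the genes most like *Edn2* over these arrays. In P17 OIR mice *Edn2* went with the glial response list at Pearson r = 0.795 (n = 13, permutation p = 0.00103, adjusted p = 0.0155) and Spearman rho = 0.736 (permutation p = 0.00521, adjusted p = 0.0782). Without the 2 mice farthest from the median r was 0.643, and within slides 0.874 over 12 mice. The depth of the array gave nearly the same r within slides, 0.855, though r = 0.372 over all 13 (permutation p = 0.212, adjusted p = 0.353), 0.0518 without the 2 farthest mice, and rho = 0.330 (permutation p = 0.272, adjusted p = 0.510). The glial list gave r = −0.187 in P28 OIR mice (permutation p = 0.547, adjusted p = 0.631; rho = 0.0604, permutation p = 0.849, adjusted p = 0.956) and r = −0.0688 in P28 control mice (permutation p = 0.815, adjusted p = 0.873; rho = −0.266, permutation p = 0.356, adjusted p = 0.534), with 0.770 and 0.684 within slides over 11 mice each. Without the 2 mice farthest from the median, r over each group became 0.688, the opposite sign, in P28 OIR and −0.117 in P28 control mice, so the P28 OIR value rests on those 2 mice. Depth gave r = 0.684 in P28 OIR mice (permutation p = 0.0172, adjusted p = 0.0645; rho = 0.399, permutation p = 0.180, adjusted p = 0.510), −0.0632 without the 2 farthest mice and −0.162 within slides. In P28 control mice it gave r = 0.436 (permutation p = 0.119, adjusted p = 0.255; rho = 0.336, permutation p = 0.238, adjusted p = 0.510), 0.535 without the 2 farthest mice and 0.779 within slides. No other r had an adjusted p under 0.05, and no rho did. The lowest, 0.0525, belonged to the tip cell (r = −0.740) and mural (r = −0.706) lists in P28 OIR mice. These became −0.317 and −0.281 without the 2 farthest mice, and −0.423 and −0.391 within slides.

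P17 control mouse 8, the control with high *Edn2*, ranked 2 of 12 controls from the top in the glial (−0.90), tip cell (−0.28), mural (−0.56) and microglial (−0.31) list means. It ranked 11 of 12 in *Ednra* (0.02) and in the endothelial (0.21), Müller glia, cone, ganglion, amacrine and horizontal, bipolar, red blood cell and processing list means, 12 of 12 in the signal list, and between 3 and 9 in the other cell lists.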
